A study of Mus musculus with 4 samples.

Results

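Broad stretches of acetylated chromatin that carried no peak of either transcription factor were examined in the mouse heart at postnatal day 6. They were chosen by 2 measured properties of the peak lists: a width of 10 kb or more in the H3K27ac list, and no shared base with any interval of the GATA4 list or the TCF7L2 list. This rule found 2805 of 5185 broad H3K27ac intervals, or 54.1% (95% Wilson interval 52.7 to 55.5), and 3.74% of all 75011 H3K27ac intervals. The 2380 broad intervals with at least 1 factor interval are the set they are compared with. Both the width and the absence of the factors are therefore properties of the selection and not findings. A factor-free interval is one with no interval in these 2 lists, which is not the same as a place where the proteins are absent.

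The chromatin came from ventricles of wild-type C57BL/6 mice at postnatal day 6, and the ventricles of 10 hearts were pooled for each precipitation. Antibodies against H3K27ac, GATA4 and TCF7L2 were used, and the labels give 2 biological replicates for each. Each antibody has 1 deposited list, with 10530 GATA4, 774 TCF7L2 and 75011 H3K27ac intervals, each given by its position alone. No height, read count or replicate value accompanies an interval, so the depth is unknown, no value below has a replicate error, and no test was made. The intervals in parentheses are 95% Wilson intervals for shares and 95% order-statistic intervals for medians. They cover counting error over genomic intervals only, and neighbouring intervals are not independent of each other.

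H3K27ac is acetylation of lysine 27 on histone H3, placed mainly by the acetyltransferases CBP and p300 at active promoters and enhancers. Where many active elements lie side by side, or where acetylation spreads into the body of a strongly transcribed gene, the mark forms broad domains. GATA4 is a zinc-finger transcription factor that binds enhancers of cardiomyocyte genes, often together with other cardiac factors. TCF7L2 is a DNA-binding factor through which β-catenin acts on genes in Wnt signalling. Ventricular tissue is a mixture of cardiomyocytes, fibroblasts, endothelial and other cells, and which of these contributed the acetylation of an interval was not tested.

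The share of H3K27ac intervals without either factor was lower in each wider class. Over all widths, 91.0% of H3K27ac intervals held neither factor, and the share was 99.2% (99.1 to 99.3) among the 32763 intervals under 1 kb. Between 8 and 10 kb, just below the threshold of the rule, 73.9% (71.9 to 75.8) were without a factor. Inside the rule it was 65.2% (63.3 to 67.1) between 10 and 15 kb, 55.5% (52.5 to 58.5) between 15 and 20 kb and 47.1% (43.9 to 50.4) between 20 and 30 kb. Between 30 and 50 kb 187 of 573 intervals were without a factor, 32.6% (28.9 to 36.6), and at 50 kb or more 27 of 231, 11.7% (8.16 to 16.5). A wide interval offers more places for a factor, so these shares describe the lists and say nothing about a preference of the factors. On the 2 sides of the threshold the shares were thus 65.2% inside and 73.9% just outside.

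**Figure D1:**
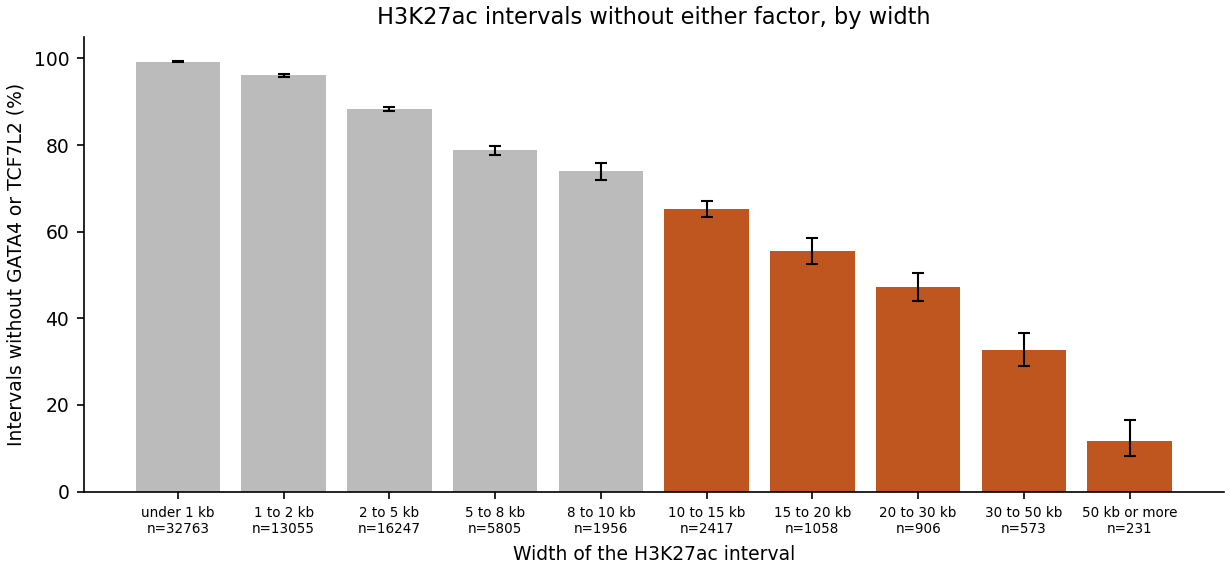
Share of H3K27ac intervals that hold no GATA4 and no TCF7L2 interval (vertical axis, percent) in 10 width classes (horizontal axis, with the number of intervals n). Bars in orange are the broad classes of 10 kb or more, grey bars the narrower ones, and error bars are 95% Wilson intervals. The share is 99.2% under 1 kb, 65.2% between 10 and 15 kb and 11.7% at 50 kb or more.

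Factor-free broad intervals had a median width of 14.1 kb (13.8 to 14.3), with quartiles of 11.7 and 19.2 kb. Broad intervals with a factor had a median of 18.5 kb (18.01 to 19.03), with quartiles of 13.2 and 29.9 kb. Together the factor-free intervals spanned 47.8 Mb, which is 19.2% of the 248.6 Mb in the whole H3K27ac list, against 60.5 Mb and 24.3% for broad intervals with a factor. They thus made up 44.1% of all broadly acetylated length. GATA4 decided most of the selection: 2867 broad intervals lacked GATA4, and 62 of these were left out because they held TCF7L2. Of the broad intervals with a factor, 2146 held GATA4 alone, 62 TCF7L2 alone and 172 both. In 1411 of them (59.3%) a single factor interval set them apart from the factor-free class, 597 held 2 factor intervals, and 372 held 3 or more.

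The threshold itself cut through a continuous range. The factor-free intervals just inside it were 10000 bp on chromosome 8 from 110020479 to 110030478, 10001 bp on chromosome 18 from 65116383 to 65126383, 10002 bp on chromosome 2 from 72154412 to 72164413, 10006 bp on chromosome 10 from 76857789 to 76867794 and 10008 bp on chromosome 14 from 70911845 to 70921852. Just outside it lay factor-free intervals of 9998 bp on chromosome 3 from 104097121 to 104107118, 9997 bp on chromosome 10 from 17786208 to 17796204, and 9995 bp each on chromosome 10 from 79279174 to 79289168, chromosome 13 from 30043868 to 30053862 and chromosome 5 from 15470723 to 15480717. The 5 inside lay between 35.3 and 116.5 kb from the nearest GATA4 interval and the 5 outside between 8.24 and 263.2 kb, so the ranges overlapped.

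The widest factor-free domain covered 115.2 kb on chromosome 8 from 127980115 to 128095264. It was the only factor-free interval of 100 kb or more, against 27 with a factor. Its nearest GATA4 interval was 10.8 kb from the border, and 8 GATA4 intervals lay in the larger stretch of 406.9 kb that forms when H3K27ac intervals are joined across gaps of up to 10 kb. Its flanks of 50 kb held 1 GATA4 interval, which is also the median over all factor-free domains, and the 5 GATA4 intervals within 200 kb of its centre all lay on the same side of it.

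The second, of 90.4 kb, lay on chromosome 1 from 182270605 to 182361047, with GATA4 71.6 kb away. The third, of 81.7 kb on chromosome 10 from 92720899 to 92802643, was 128.4 kb from GATA4 and 1.81 Mb from TCF7L2, and its whole joined stretch of 150.5 kb held neither factor. A domain of 77.8 kb on chromosome 4 from 62262923 to 62340746 likewise belonged to a stretch, of 126.7 kb, without either factor. In contrast, domains of 72.4 kb on chromosome 9 from 32492204 to 32564624 and of 71.5 kb on chromosome 4 from 138743656 to 138815150 had GATA4 at 12.2 and 7.58 kb, with 2 GATA4 intervals in the flanks of each. The widest domains thus ran from immediate neighbours of GATA4 to places far from it.

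**Figure D2:**
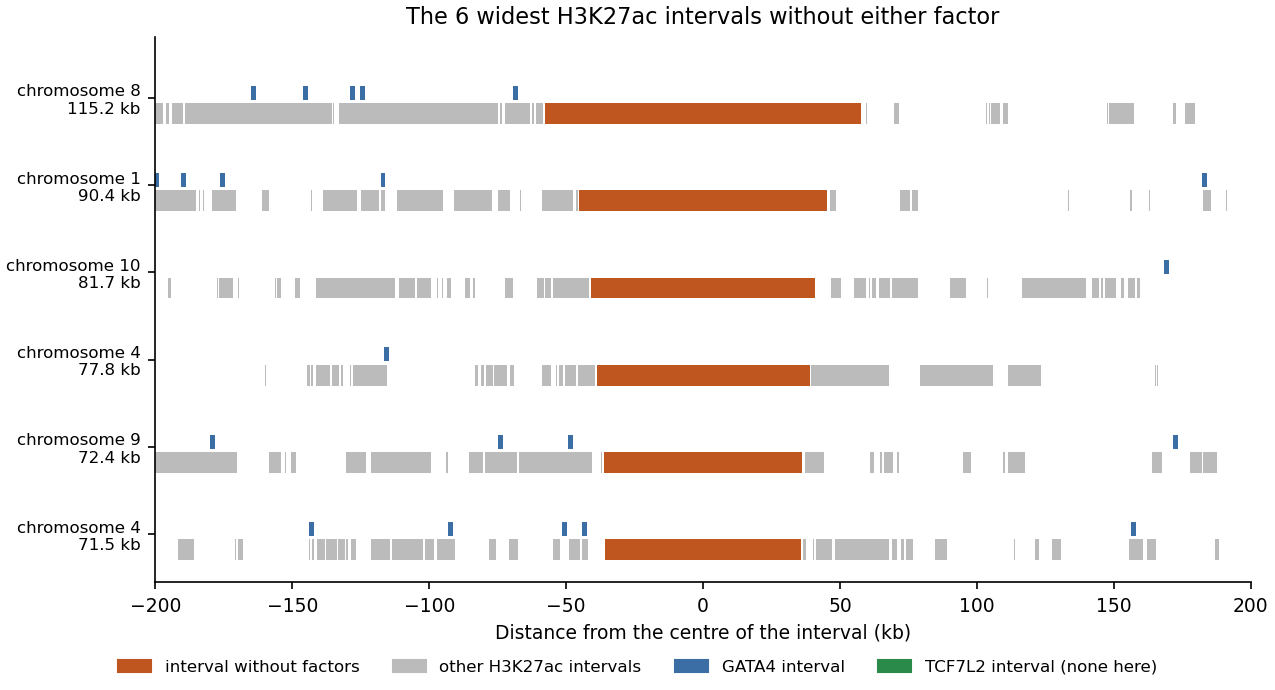
Map of the 6 widest factor-free H3K27ac intervals, 1 row each, widest at the top, with the distance from the interval's centre in kb on the horizontal axis. Orange marks the interval itself, grey the other H3K27ac intervals and blue the GATA4 intervals, drawn wider than they are so that they can be seen. No TCF7L2 interval lies within 200 kb of any of the 6 centres. The row of 81.7 kb and that of 77.8 kb each have 1 GATA4 interval in view, the others 4 or 5.

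Pairs of very wide factor-free domains also lay side by side. On chromosome 11, domains of 64.6 kb (118176926 to 118241545) and 67.3 kb (118257606 to 118324934) followed each other, with GATA4 at 25.1 and 13.2 kb. The narrower of this pair also had TCF7L2 24.9 kb from its border and was the only 1 of the 15 widest with TCF7L2 in its flanks of 50 kb. On chromosome 6, domains of 60.4 kb (115826249 to 115886621) and 69.1 kb (115891598 to 115960694) lay in the same stretch of 181.2 kb, which held neither factor. The remaining members of the 15 widest were on chromosome 18 (65730632 to 65796790, 66.2 kb), chromosome 11 (32238286 to 32300654, 62.4 kb), chromosome 15 (99141704 to 99202287, 60.6 kb), chromosome 4 (134774466 to 134834433, 59.97 kb) and chromosome 2 (27563722 to 27623225, 59.5 kb). Of these 15, 8 had no GATA4 interval within 50 kb, and 8 belonged to a joined stretch without any factor. Over all factor-free domains, 43.0% had no GATA4 that near and 46.0% belonged to such a stretch. Among factor-free domains of 30 kb or more, 37.9% had no GATA4 that near, and 63.1% shared a stretch with a factor interval. The distances of the 15 widest to GATA4 ran from 7.58 to 132.8 kb with a median of 58.8 kb.

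GATA4 was common in the neighbourhood of factor-free domains and a little farther away than around other broad domains. The nearest GATA4 interval lay at a median of 40.6 kb (38.8 to 42.5) from the border of a factor-free domain. From broad domains with a factor, counting only GATA4 outside the domain, the median was 32.5 kb (30.8 to 34.4). GATA4 occurred within 10 kb of 12.2% (11.0 to 13.4) of factor-free domains and 15.6% (14.2 to 17.1) of domains with a factor. Within 50 kb the shares were 56.97% (55.1 to 58.8) and 64.5% (62.6 to 66.4), and within 100 kb 78.9% (77.3 to 80.3) and 82.98% (81.4 to 84.4).

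The direction of this difference was the same in each of 4 width classes. Medians were 41.7 kb (39.2 to 44.6) without and 35.7 kb (31.6 to 39.4) with a factor between 10 and 15 kb of width. Between 15 and 20 kb they were 39.9 kb (35.4 to 44.3) and 29.5 kb (25.8 to 33.2), and between 20 and 30 kb 39.96 kb (35.5 to 46.9) and 32.5 kb (28.8 to 38.1). At 30 kb or more they were 35.9 kb (30.5 to 43.4) and 31.6 kb (28.8 to 34.97). The intervals of the 2 medians overlapped in every width class except that of 15 to 20 kb.

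**Figure D3:**
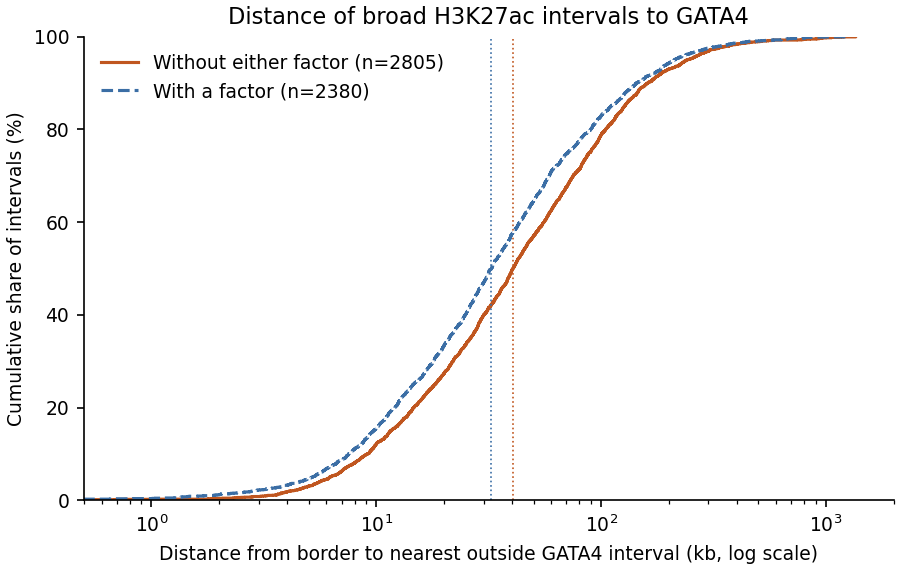
Cumulative share of broad H3K27ac intervals (vertical axis, percent) against the distance from the border to the nearest GATA4 interval outside the interval (horizontal axis, kb, log scale), for 2805 intervals without either factor (orange, solid) and 2380 with a factor (blue, dashed). Dotted vertical lines mark the medians of 40.6 and 32.5 kb. The curve without either factor lies to the right through the middle of the range, with broad overlap.

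A few factor-free domains just missed a GATA4 interval. Of 2805 factor-free domains, 6 (0.214%) had GATA4 within 1 kb of a border, against 9 of 2380 domains with a factor (0.378%). Within 5 kb the counts were 86 (3.07%) and 109 (4.58%). The closest was a domain of 42.6 kb on chromosome 11 from 74944036 to 74986639, whose border lay 13 bp from a GATA4 interval. The next were domains on chromosome 15 from 101137880 to 101154208 at 168 bp, on chromosome 7 from 29210597 to 29221034 at 397 bp, on chromosome 2 from 179992701 to 180007846 at 432 bp and on chromosome 1 from 94061910 to 94076325 at 688 bp. In these 5, a border drawn less than 1 kb farther out would have included GATA4.

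At the other end, 197 factor-free domains (7.02%) had no GATA4 within 200 kb, against 135 domains with a factor (5.67%). The farthest, of 10.9 kb on chromosome 9 from 98324610 to 98335558, was 1.36 Mb from the nearest GATA4 interval and had no other broad H3K27ac interval within 1 Mb. The next 3 lay in 1 stretch of 104.0 kb on chromosome 10, from 26486637 to 26502421, from 26514332 to 26532301 and from 26539933 to 26551860, between 1.14 and 1.19 Mb from GATA4 and more than 12 Mb from TCF7L2. Acetylation was dense there, with 46.1% to 54.1% of the flanks of 50 kb covered by H3K27ac. The fifth, of 14.3 kb on chromosome 7 from 128113162 to 128127416, was 1.06 Mb from GATA4 in flanks with 4.97% coverage. Among these few domains, those far from GATA4 thus lay in both dense and sparse surrounding acetylation. Distance from GATA4 was not compared with flank coverage over all factor-free domains.

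TCF7L2 intervals were few near factor-free domains, from a list of 774 in all. The nearest TCF7L2 interval was at a median of 665.1 kb (619.2 to 723.2), against 565.9 kb (523.2 to 615.2) for broad domains with a factor. Within 50 kb of a border, TCF7L2 was found for 211 factor-free domains, 7.52% (6.60 to 8.56), and 190 domains with a factor, 7.98% (6.96 to 9.14). The direction differed by width: at 30 kb or more the medians were 473.5 kb (395.0 to 619.3) without and 511.7 kb (454.4 to 627.2) with a factor, and in the 3 narrower classes factor-free domains were the farther ones. Between 10 and 15 kb the medians were 692.7 and 651.3 kb, between 15 and 20 kb 725.4 and 550.6 kb, and between 20 and 30 kb 580.7 and 485.9 kb.

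Factor-free domains stood in densely acetylated surroundings, with slightly more coverage than around domains with a factor. In the 50 kb on each side, H3K27ac covered a median of 40.6% (39.4 to 41.8) around factor-free domains and 38.7% (37.7 to 39.5) around domains with a factor, against 9.65% of the whole span of the lists. By width, the medians without and with a factor were 37.1% and 34.0% between 10 and 15 kb, 41.3% and 39.2% between 15 and 20 kb, 46.1% and 39.5% between 20 and 30 kb, and 47.3% and 46.6% at 30 kb or more. The median number of other H3K27ac intervals in these flanks was 11 and 10. The median was the higher one for factor-free domains in each width class, with the widest difference between 20 and 30 kb, and the lists give no measure of the strength of acetylation. The difference of 1.82 percentage points over all widths was small and depended on the setting, at 0.595 points with a width threshold of 8 kb, 0.507 points with H3K27ac joined across 1 kb and 0.737 points with flanks of 100 kb.

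Seen in steps of 10 kb away from the borders, H3K27ac coverage was highest between 10 and 20 kb in both classes and lower farther out. In the first 10 kb it was 41.1% beside factor-free domains and 38.3% beside domains with a factor. Between 10 and 20 kb from the border it was 45.0% beside factor-free domains and 44.4% beside domains with a factor, and between 190 and 200 kb 24.7% and 26.02%. GATA4 midpoints numbered 11.9 per Mb between 20 and 30 kb from factor-free domains and 13.97 per Mb at that distance from domains with a factor. Between 190 and 200 kb these densities were 8.73 and 9.29 per Mb, against 4.09 per Mb over the whole span. In the first 10 kb GATA4 was sparser in both classes, at 6.63 and 8.91 per Mb. Factor-free domains were therefore set in regions with more GATA4 than the average of the span, at up to 200 kb, although with less than around the other broad domains within 80 kb of the border. For TCF7L2, with between 26 and 61 midpoints per step, the order of the 2 classes changed from step to step. Around factor-free domains these steps held between 0.535 and 1.09 TCF7L2 midpoints per Mb, against 0.3003 per Mb over the whole span.

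**Figure D4:**
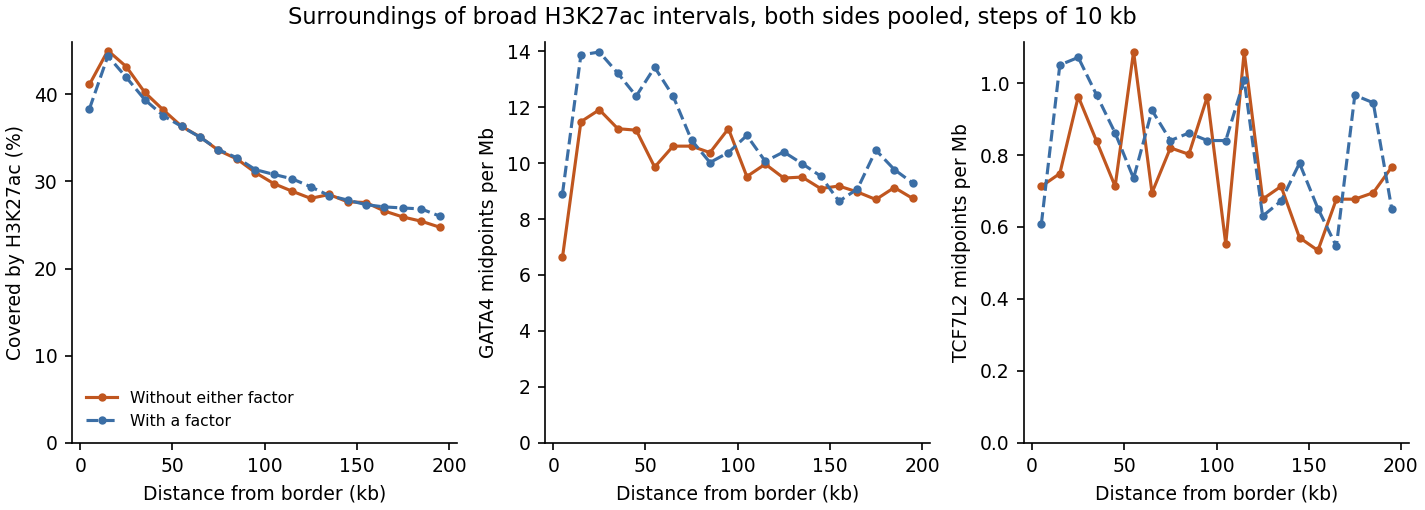
Coverage by H3K27ac (left, percent), GATA4 midpoints per Mb (middle) and TCF7L2 midpoints per Mb (right) in steps of 10 kb up to 200 kb from the borders of broad H3K27ac intervals without either factor (orange, solid, 2805 intervals) and with a factor (blue, dashed, 2380 intervals), both sides pooled. H3K27ac coverage runs together in the 2 classes, while GATA4 between 20 and 30 kb is 11.9 per Mb without and 13.97 per Mb with a factor.

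As with domains that held a factor, the GATA4 nearest to a factor-free domain lay mostly in another H3K27ac interval. The GATA4 interval nearest to a factor-free domain lay in another broad H3K27ac interval in 1297 of 2805 cases (46.2%, 44.4 to 48.1), in a narrower H3K27ac interval in 1257 (44.8%, 43.0 to 46.7) and outside H3K27ac in 251 (8.95%, 7.95 to 10.1). For domains with a factor the shares were 46.6% (44.6 to 48.6), 46.01% (44.01 to 48.02) and 7.35% (6.37 to 8.47). Most GATA4 lay in H3K27ac in any case: all H3K27ac intervals together held 8358 GATA4 intervals, from a list of 10530. H3K27ac intervals under 10 kb in the flanks of factor-free domains held 845 GATA4 intervals in 42.6 Mb, or 19.8 per Mb of acetylated sequence. In the flanks of domains with a factor they held 911 in 37.8 Mb, or 24.1 per Mb, and over the whole list H3K27ac intervals under 10 kb held 32.1 per Mb. Flanks of the 2 classes overlap, so the same narrow interval can count in both. Per acetylated Mb, narrow H3K27ac intervals near broad domains of either class thus had less GATA4 than narrow H3K27ac intervals as a whole. Widths under 10 kb were not matched in this comparison, although wider H3K27ac intervals held a factor more often. TCF7L2 in the same flanking intervals came to 1.88 and 1.91 per acetylated Mb, against 2.81 over all H3K27ac intervals under 10 kb.

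Factor-free domains were seldom isolated. The nearest other H3K27ac interval lay at a median of 759 bp (739 to 780), against 793.5 bp (768 to 818) for domains with a factor, and the smallest gap in the H3K27ac list is 501 bp. On at least 1 side, 63.9% (62.1 to 65.6) of factor-free domains and 61.6% (59.6 to 63.5) of domains with a factor had another H3K27ac interval within 1 kb. On both sides the shares were 17.3% (15.9 to 18.7) and 15.6% (14.2 to 17.1). With H3K27ac intervals joined across gaps of up to 1 kb before the rule was applied, the distances to the next H3K27ac interval changed order, with medians of 2057 bp without and 1978 bp with a factor. Domains that did stand alone were few: 226 factor-free domains (8.06%) had no H3K27ac within 5 kb, against 205 (8.61%) with a factor. The most isolated was a domain of 12.8 kb on chromosome 13 from 16102683 to 16115493, with the next H3K27ac interval 184.4 kb away and GATA4 268.9 kb away. The next were domains on chromosome 5 from 144660743 to 144671755, with a gap of 77.6 kb, on chromosome 3 from 68918291 to 68932541, with 67.8 kb, on chromosome 18 from 60533607 to 60547332, with 51.6 kb, and on chromosome 14 from 23626610 to 23637230, with 45.1 kb.

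Joining H3K27ac across gaps of up to 10 kb placed the 2805 factor-free domains in 1972 stretches with a median length of 58.01 kb. Of these stretches, 1045 (53.0%) held neither factor, and they contained 1289 domains, 46.0% of all. The other 1516 domains, 54.05% (52.2 to 55.9), shared a stretch with at least 1 factor interval. Among broad domains with a factor, 59.1% (57.1 to 61.03) had a further factor interval elsewhere in their stretch. Between 10 and 15 kb of width these shares were 50.4% (47.9 to 52.9) and 51.1% (47.7 to 54.4). Between 15 and 20 kb they were 55.0% (51.0 to 59.0) and 62.0% (57.5 to 66.3). At 30 kb or more they were 63.1% (56.4 to 69.3) and 67.6% (63.7 to 71.3). Only between 20 and 30 kb was the order reversed, with 61.6% (56.9 to 66.1) and 59.7% (55.3 to 64.01). The length of the stretch was not matched in these shares. Counted per domain, its medians without and with a factor were 65.3 and 54.2 kb between 10 and 15 kb of width. They were 84.4 and 79.4 kb between 15 and 20 kb, 111.7 and 90.5 kb between 20 and 30 kb, and 130.9 and 134.2 kb at 30 kb or more. The stretches without either factor had a median length of 36.2 kb, and 67 of them reached 100 kb. A shorter stretch offers fewer places for a factor, so a lower median than over all 1972 stretches follows in part from the choice.

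The neighbour of a factor-free domain was factor-free slightly more often than the neighbour of a domain with a factor. Among consecutive broad domains no more than 50 kb apart, the neighbour of a factor-free domain was factor-free in 58.2% (56.4 to 60.1) of cases and the neighbour of a domain with a factor in 50.8% (48.8 to 52.9), over 2490 pairs. Without a limit on the gap the shares were 56.1% (54.8 to 57.4) and 51.7% (50.3 to 53.1), against 54.1% of all broad domains. Each pair enters from both of its ends, so these intervals are narrower than the number of pairs warrants. The next factor-free domain was at a median of 48.9 kb (44.4 to 54.7) from a factor-free domain and 63.3 kb (57.7 to 69.9) from a domain with a factor. This order held in the 4 width classes, with medians of 58.9 and 85.3 kb, 48.5 and 57.8 kb, 29.2 and 59.5 kb, and 28.4 and 48.1 kb from the narrowest class to the widest.

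The densest group of factor-free domains was on chromosome 2, where each of 5 domains had 20 others within 1 Mb. They lay from 166813133 to 166823860, from 166878571 to 166892626, from 166935901 to 166961922, from 166970239 to 167004978 and from 167043201 to 167069439. The region was dense in broad domains of both classes, with 35 to 38 others within 1 Mb of each, and GATA4 lay between 4.70 and 73.5 kb away. The 20 factor-free domains among these others are near the share over all broad domains, 54.1%. By joined stretches, the most factor-free domains were found on chromosome 2 from 27522471 to 27894408, where 9 lay in 371.9 kb together with 3 GATA4 intervals. A stretch of 417.2 kb on chromosome 17 from 86543216 to 86960369 held 8 of them and 11 GATA4 intervals. GATA4 thus occurred in the same long stretches as factor-free domains, and outside these domains by the rule of selection.

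Long runs without a factor were not restricted to the factor-free domains. Of the 2380 broad domains with a factor, 1499 (63.0%, 61.02 to 64.9) contained a run of 10 kb or more without any factor interval. The longest run had a median of 16.7 kb over these 1499 and 12.1 kb over all 2380. The share was 17.3% (14.9 to 19.97) among those of 10 to 15 kb, 66.9% (62.5 to 71.0) between 15 and 20 kb, 93.9% (91.4 to 95.8) between 20 and 30 kb, and 589 of 590 at 30 kb or more. In the typical domain with a factor, the longest run took 64.3% of the width (median). The median number of factor intervals per domain was 1, and 2 at 30 kb or more. A few narrow factor intervals leave a long run in a wide domain wherever they lie. These shares and this median therefore depend on the widths and the number of factor intervals. The values to be expected from widths and numbers alone were not computed. The longest run of all, 84.7 kb, lay in a domain of 123.5 kb with 1 GATA4 interval on chromosome 15 from 58801569 to 58925022. Behind it came runs of 83.2 kb in a domain of 128.8 kb on chromosome 7 from 116660048 to 116788813 and of 81.9 kb in a domain of 131.4 kb on chromosome 11 from 117091887 to 117223307. Only 2 factor-free domains, of 115.2 and 90.4 kb, were longer than the longest of these runs.

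The share of broad domains without a factor varied little between autosomes. It was 53.97% (52.6 to 55.3) over the 19 autosomes and lay between 47.0% (39.1 to 55.0) on chromosome 16 and 60.2% (53.3 to 66.7) on chromosome 18. The Wilson intervals of 18 autosomes included the share of all chromosomes, 54.1%. The exception was chromosome 11, with 221 of 464 broad domains factor-free, 47.6% (43.1 to 52.2). Among 19 such intervals, a single miss can arise from counting error alone. Chromosome 11 had the most broad domains per Mb, 3.91, the most factor-free domains per Mb, 1.86, and the highest coverage by H3K27ac, 17.0%. It also had the most GATA4 intervals per Mb, 7.08, with chromosome 19 next at 5.41. The part of GATA4 density in its low share was not tested. Factor-free domains per Mb differed more between autosomes than their share did, with the lowest density, 0.711 per Mb, on chromosome 1.

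On the X chromosome 21 of 27 broad domains were factor-free, 77.8% (59.2 to 89.4), above every autosome. Only 27 domains stand behind this value, 19 of them between 10 and 15 kb wide, and 15 of these 19 were factor-free. X had 0.129 factor-free domains per Mb and 0.165 broad domains per Mb, with 1.68% of its span covered by H3K27ac. GATA4 lay at a median of 103.1 kb from the factor-free domains on X, against 40.2 kb from those on autosomes, and 12 of the 21 had no GATA4 within 100 kb. Their flanks of 50 kb were covered by H3K27ac to a median of 10.95%, against 40.8% on autosomes. The low coverage by H3K27ac and the low number of GATA4 intervals on X move with this share, and their part in it was not tested.

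**Figure D5:**
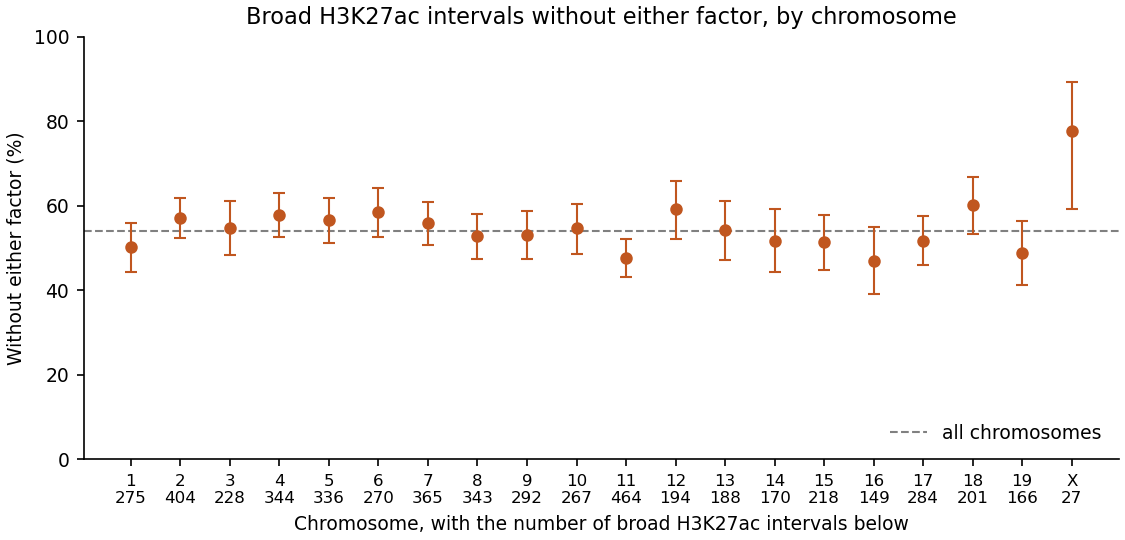
Share of broad H3K27ac intervals without either factor (vertical axis, percent) for each chromosome (horizontal axis, with the number of broad intervals). Points are shares, error bars 95% Wilson intervals, and the dashed line is the share over all chromosomes, 54.1%. Autosomes lie between 47.0% and 60.2%, and X at 77.8% with a wide interval.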

How the data were processed

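ChIP-seq peak lists of ventricles at postnatal day 6 were used, 1 each for H3K27ac, GATA4 and TCF7L2. The deposited files hold positions in bp on mm9 without a header, score or count, and the input was not analysed here. Per the submitters' processing notes, mm9 was the build, and Bowtie2 2.2.6.2, MACS2 2.1.1.20160309.0, FastQC 0.10.0 and deepTools were used. For the peak threshold and the handling of replicates, the sources used here give nothing. Positions are printed 1-based.

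Overlap means 1 bp or more. Distances run from border to border, flanks are 50 kb on each side, and stretches join H3K27ac across gaps of up to 10 kb. Values are counts, shares and medians. The members and the settings were chosen with earlier results of these data known. Named are the 15 widest domains and 5 each of those nearest to the threshold on either side, farthest from and closest to GATA4, with the most others within 1 Mb, and with the widest gap to H3K27ac, ties by width. Other named regions, among them joined stretches, domains with long factor-free runs and pairs of neighbours, were singled out after their values were seen. Genes, promoters, sequences and motifs were not analysed here, because the annotation and sequence tables at hand are for another build, GRCm38.p6. Counting, distances and runs were tested on simulated data with planted positions. Alternatives were other width thresholds, overlap rules, joining distances, flanks and run lengths, and autosomes alone. Scripts ran under Python 3.11.15 with scipy 1.17.1, pandas 2.3.3, numpy 2.4.6 and matplotlib 3.10.9.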

Additional observations from a re-analysis of the deposited data

How the results depend on the processing

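Of 52 alternatives for values of factor-free domains, 29 kept the value within its 95% interval, 22 moved it and 1 reversed the direction against domains with a factor. The other 3 alternatives concern runs in domains with a factor and the chromosomes. Domains with no factor within 1 kb, factor midpoints in place of overlap, and autosomes alone moved none. These settings left 2799, 2806 and 2784 factor-free domains, against 2805, so they could hardly move a value. Most of the 29 values that stayed come from them. Where the 2 classes were compared, 45 of 46 alternatives kept the direction. Many of these come from the same settings, which could hardly change it, and some concern the width, a property of the selection. The count leaves out the width classes, among which the direction differed for TCF7L2 and for factors elsewhere in the stretch.

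With a threshold of 8 kb, by construction with more and narrower domains, the factor-free share was 59.5%, the median width 11.6 kb, the flanking H3K27ac 37.5%, the gap to H3K27ac 782 bp, the distance to the next factor-free domain 32.98 kb and the share with a factor elsewhere in the stretch 51.5%. With 15 kb these were 44.4%, 20.5 kb, 43.99%, 720.5 bp, 137.9 kb and 58.7%. With H3K27ac joined across 1 kb they were 55.8%, 14.6 kb, 36.6%, 2057 bp (reversed, against 1978 bp with a factor; the joining removes gaps under 1 kb), 40.9 kb and 46.6%, and GATA4 lay 45.3 kb away.

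Joining stretches across 5 or 20 kb changed the share with a factor elsewhere to 38.5% and 72.2%. Flanks of 20 and 100 kb had 42.2% and 36.6% H3K27ac. The class difference in the share with a factor elsewhere was -5.03 percentage points, and -2.21 with stretches joined across 5 kb. Runs of at least 8 or 15 kb occurred in 78.4% and 37.6% of domains with a factor. The highest autosome exceeded the lowest 1.28-fold by share and 2.62-fold per Mb. Gene starts, base composition and motifs were planned and not run, for lack of an annotation and genome of the build. Read depth is unknown, so a weak GATA4 or TCF7L2 site below the peak threshold cannot be told apart from none.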

Other observations

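Long stretches with several factor-free domains and neither factor anywhere in them were found on several chromosomes. These regions were singled out after their values were seen. The longest, 184.6 kb on chromosome 5 from 111525741 to 111710313, joined 26 H3K27ac intervals, 5 of them broad and factor-free. A stretch of 181.2 kb on chromosome 6 from 115788844 to 115970088 joined 12 H3K27ac intervals with 3 factor-free domains. Stretches of 168.8 kb on chromosome 2 from 30907028 to 31075837 and of 168.4 kb on chromosome 3 from 107531428 to 107699792 held 4 factor-free domains each. The fifth, of 163.9 kb on chromosome 9 from 117000145 to 117164075, joined 25 H3K27ac intervals around 1 factor-free domain.

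Counting along the chromosome, the longest unbroken series of broad domains without a factor held 12 domains each on chromosome 1, within 3.92 Mb, on chromosome 5, within 4.19 Mb, and on X, within 61.7 Mb. The most compact of the next longest were 11 domains within 0.553 Mb on chromosome 4 from 132681241 to 133234419 and 11 within 0.992 Mb on chromosome 6 from 30583395 to 31575433. Of all broad domains 54.1% were factor-free, and on X 21 of 27. The length of series to be expected from these shares was not computed.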
